A study of Mus musculus with 18 samples.

Results

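The 10 genes described here are the Notch receptors Notch1, Notch2, Notch3 and Notch4, the ligands Dll4, Jag1 and Jag2, the nuclear factor Rbpj, and the target genes Hey1 and Hes1. They were picked by gene symbol, and all 10 were listed in each of the 3 deposited tables, among 13957 genes in Brain, 12827 in Retina and 7569 in Choroid (14411 in any table, 7270 in all). All mice were Cdh5(PAC)-cre/ERT2+; NuTRAP+ and had been induced with tamoxifen. The recombinase is driven by the promoter of the endothelial cadherin gene and, once induced, switches on a GFP-tagged ribosomal protein, so that tagged ribosomes come from cells that had used that promoter. Each of brain, retina and choroid gave 3 Positive libraries, from ribosomes pulled down with an antibody against GFP, and 3 Input libraries, from the same homogenates before the pull-down. That makes 18 libraries in 6 groups, all of 1 genotype and 1 treatment: Choroid Positive and Choroid Input, Retina Positive and Retina Input, and Brain Positive and Brain Input. The submitters call the 3 libraries of a group biological replicates. The sources used here give neither the age of the mice nor the number of animals behind a library.

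Notch signalling passes between touching cells. A ligand of the Delta-like or Jagged family on one cell engages a Notch receptor on its neighbour, proteases release the receptor's intracellular part, and this enters the nucleus, binds the DNA-binding protein encoded by Rbpj and switches on genes of the Hes and Hey families. In growing vessels Dll4 and Notch restrain tip cell formation and favour arterial fate. Notch4 is known as the endothelial receptor of the family, and Notch3 as the receptor of vascular smooth muscle and pericytes.

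Notch4 and Dll4 rose together in all 3 tissues, so the bases upstream of their transcription starts are shown. Both come from the RefSeq promoter table of GRCm38.p6, read 5′ to 3′ on the gene's strand, which is the plus strand for both. Notch4 lies at chr17:34564045-34564294 and Dll4 at chr2:119325534-119325783, and each window ends at the base before the start site.
Notch4: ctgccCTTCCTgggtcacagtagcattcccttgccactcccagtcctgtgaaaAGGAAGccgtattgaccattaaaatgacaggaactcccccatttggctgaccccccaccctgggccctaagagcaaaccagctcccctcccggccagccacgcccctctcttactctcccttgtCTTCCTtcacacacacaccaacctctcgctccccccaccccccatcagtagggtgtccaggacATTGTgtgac
Dll4: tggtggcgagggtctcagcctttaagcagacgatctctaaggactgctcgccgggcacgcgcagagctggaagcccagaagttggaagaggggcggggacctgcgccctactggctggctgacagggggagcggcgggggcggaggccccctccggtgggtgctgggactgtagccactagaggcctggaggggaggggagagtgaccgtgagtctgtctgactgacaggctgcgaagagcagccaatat
Capitals mark AGGAAG, a core of ETS factor sites, and ACAAT, a core of SOX factor sites, each on either strand, and no match overlapped another. Notch4 held 3 matches to the first and 1 to the second, and Dll4 held neither. Of the 32851 windows in the table, each of 250 bases upstream, 29.5% held AGGAAG and 27.7% held ACAAT. The core of RBPJ sites, TGGGAA, stood in 21.6% of windows, and CACGTG, an E-box, in 6.02%. Of the 8 members with an entry, only Rbpj held TGGGAA and none held CACGTG. Hey1 and Hes1 have no entry. A match is a description of letters and not a bound site.

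Listed genes summed to 31111437 to 40112343 estimated counts in Brain Positive and 28128866 to 43219831 in Brain Input, 12325658 to 26069649 in Retina Positive and 20915469 to 36157140 in Retina Input, and 713733 to 2717264 in Choroid Positive and 2018126 to 10031274 in Choroid Input. Choroid Positive replicate 2 stood apart: it was the smallest library, and the ribosomal RNA gene Rn45s took 13% of its counts, where it took 0.353% and 1.09% in the other Choroid Positive libraries. With both Choroid replicate 2 libraries left out, the 8 Choroid calls on Positive over Input described below held. Cdh5, whose promoter drives the recombinase, was higher in Positive by 5.11 ± 0.085, 6.63 ± 0.40 and 2.94 ± 0.29 on the log2 scale (SE) in Brain, Retina and Choroid. Marker genes of the labelled tissues were present in Input: 8 of 8 photoreceptor genes summed to 34593 to 42743 CPM in Retina, 6 of 7 pigment epithelium genes to 13820.0 to 20019 in Choroid, and 7 of 7 neuronal genes to 7451 to 8052 in Brain. The 10 endothelial markers summed to 4950.1, 4745 and 4500.3 CPM in Brain Positive and 119.6 to 143 in Brain Input. In Retina Positive they summed to 2273, 2396 and 4527, so replicate 3 stood apart, against 187 to 220.3 in Retina Input. Choroid Positive held 15812, 12673 and 15569 CPM and Choroid Input already held 1421 to 2452. Photoreceptor genes summed to 40275 ± 9783 CPM in Retina Positive and 39928 ± 4623 in Retina Input.

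Set against the whole tissue, most members were higher on the tagged ribosomes. In Brain 9 of 10 rose and Notch3 fell, where 38.3% of all genes tested were called higher and 39.7% lower. In Retina 6 rose and Jag1 fell (15.3% and 10.8% of all genes), while Notch2, Notch3 and Rbpj did not pass. In Choroid 6 rose and Notch2 and Notch3 fell (16.3% and 20.2% of all genes), while Jag1 and Rbpj did not pass. A call is an adjusted p under 0.05 by edgeR's quasi-likelihood test over all genes of that tissue, and log2 fold changes are given with their SE. The median log2 fold change of the 10 genes was 1.97 in Brain, 1.38 in Retina and 1.81 in Choroid, beside -0.018, -0.034 and -0.013 over all genes. Notch1, Notch4, Dll4, Jag2, Hey1 and Hes1 rose in each of the 3 tissues. A gene was listed if it reached a raw value of 50 in every library of 1 fraction or the other. Through Positive alone this listed Dll4 in Retina and Choroid, and Hey1 in Choroid. Through Input alone it listed Notch3 in Retina, and Notch2, Notch3, Jag1 and Rbpj in Choroid. Their differences in those tissues are therefore not independent of the listing. In libraries of bulk RNA, fewer cells of a type and less RNA per cell cannot be told apart. Values below are CPM (counts of listed genes scaled by TMM within a tissue) unless a shared scale is named.

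**Figure D1:**
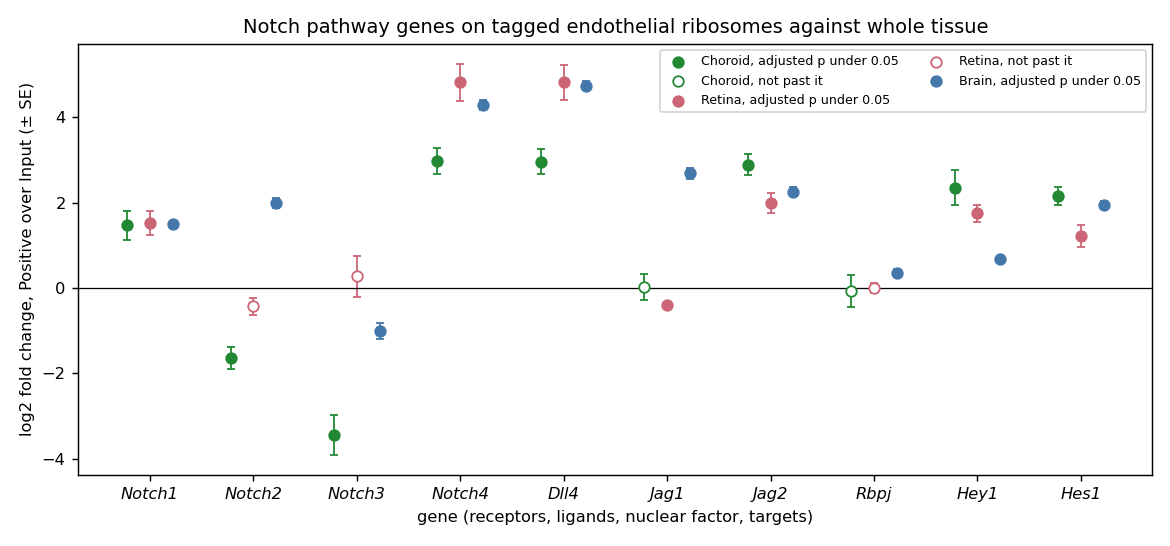
Log2 fold change of Positive over Input (vertical axis, with SE) for the 10 Notch genes in Choroid, Retina and Brain, 3 libraries per fraction. Filled points passed an adjusted p of 0.05 and open points did not. Notch4 and Dll4 stand highest in each tissue, and Notch3 in Choroid stands lowest at -3.44.

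Among the receptors, Notch4 had the largest rise in each tissue. Notch4 (Entrez 18132, chromosome 17, 34564295 to 34588543) stood at 149.9, 178 and 181 CPM in Brain Positive, against 9.39, 7.46 and 9.32 CPM in Brain Input. It reached 67.2, 67.5 and 181 CPM in Retina Positive, against 3.81, 3.98 and 3.38 CPM in Retina Input. In Choroid it stood at 559.5, 527 and 657 CPM in Choroid Positive, against 74.2, 42.2 and 103 CPM in Choroid Input. Positive and Input did not overlap in any tissue, and Retina Positive replicate 3, the library with the most endothelial marker RNA, was well above the other Retina Positive libraries. Input of Choroid was far above Input of Brain and Retina. The log2 fold changes were 4.29 ± 0.12 in Brain (adjusted p = 8.18e-10), 4.82 ± 0.44 in Retina (0.000192) and 2.97 ± 0.30 in Choroid (1.62e-05).

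Notch1 (Entrez 18128, chromosome 2, 26457902 to 26503822), a receptor used in many tissues, rose by a similar factor in each. Its levels were 59.2, 58.1 and 59.4 CPM in Brain Positive, against 19, 21.6 and 22.3 CPM in Brain Input. They were 65.2, 62.1 and 132 CPM in Retina Positive, against 34.9, 30.4 and 25.1 CPM in Retina Input. Choroid gave 313, 123 and 324 CPM in Choroid Positive, against 114, 61.3 and 102 CPM in Choroid Input. No fraction overlapped its partner, though the lowest Choroid Positive library, replicate 2, lay just above the highest Choroid Input. The log2 fold changes were 1.49 ± 0.078, 1.52 ± 0.29 and 1.46 ± 0.34 in Brain, Retina and Choroid (adjusted p = 7.55e-08, 0.00657 and 0.00515).

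Notch2 (Entrez 18129, chromosome 3, 98013538 to 98150367), a receptor of many epithelial and stromal cells as well, went opposite ways by tissue. It stood at 73.7, 93 and 70.8 CPM in Brain Positive, against 20.9, 17.6 and 21 CPM in Brain Input, a rise of 2.00 ± 0.12 (adjusted p = 1.74e-07). In Retina it stood at 24, 15.8 and 26.7 CPM in Retina Positive, against 36, 27.4 and 26.8 CPM in Retina Input, and the difference of -0.43 ± 0.20 did not pass (adjusted p = 0.161), although it did without Retina Positive replicate 3 (-0.58, adjusted p = 0.0458). Choroid held 36.2, 41.4 and 58.6 CPM in Choroid Positive, against 148, 116 and 161 CPM in Choroid Input, a fall of 1.64 on the log2 scale (SE 0.27, adjusted p = 0.000421). All Brain Positive libraries lay above Brain Input, and all Choroid Positive libraries lay below Choroid Input. In Retina the highest Positive library lay just under the lowest Input library. Pigment epithelium markers summed to 1325 ± 261 CPM in Choroid Positive and 17287 ± 3165 in Choroid Input, where 6 of 6 measured fell, and fibroblast markers to 438 ± 143 CPM in Choroid Positive and 3043 ± 432 in Choroid Input, where 5 of 5 fell. In Brain, where Notch2 rose, 5 of 5 fibroblast markers rose as well, with sums of 1734 ± 351 CPM in Brain Positive and 121 ± 4.34 in Brain Input. Other lists fell in Choroid too: melanocyte markers in 5 of 5 measured, photoreceptor in 5 of 6, microglia in 4 of 5 and mural in 6 of 9. So did 5 of 7 astrocyte and Müller glia markers and 3 of 4 neuronal markers, while 0 of 2 oligodendrocyte markers passed. In Brain 2 of 3 pigment epithelium markers rose and 1 fell. There 10 of 10 endothelial and 2 of 2 photoreceptor markers rose, and of 10 mural markers 4 rose and 5 fell. All 7 neuronal and all 5 oligodendrocyte markers fell in Brain. Of 10 astrocyte and Müller glia markers 8 fell and 2 rose, and of 6 microglia markers 5 fell and 1 rose. The part of any of these cells in the Notch2 differences was not tested.

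Notch3 (Entrez 18131, chromosome 17, 32120893 to 32166852), the mural cell receptor, was the member that fell furthest. It had 9.7, 5.88 and 8.95 CPM in Brain Positive, against 13.2, 17 and 19 CPM in Brain Input, which was -1.01 ± 0.20 (adjusted p = 0.000896). Choroid had 6.22, 12.7 and 6.38 CPM in Choroid Positive, against 96.7, 38.8 and 109 CPM in Choroid Input, which was -3.44 ± 0.47 or 10.9-fold lower in Positive (adjusted p = 0.000128). Neither pair of groups overlapped. The Choroid Positive values rest on only 16.8, 8.5 and 10.5 estimated counts. Retina had 9.73, 2.02 and 4.5 CPM in Retina Positive, against 5.45, 3.84 and 4.46 CPM in Retina Input, and these overlapped (0.27 ± 0.47, adjusted p = 0.711, and -0.41 without Retina Positive replicate 1). Of 12 mural markers, Acta2 and Cnn1 were listed in no tissue. Of 9 measured in Choroid 6 fell and 0 rose, with sums of 296 ± 67.8 CPM in Positive and 971 ± 232 in Input. Of 10 measured in Brain 4 rose and 5 fell: Vtn (3.58 ± 0.12) and Pdgfrb (2.05 ± 0.14) were among those that rose, and Abcc9 (-1.39 ± 0.25) and Cspg4 (-1.36 ± 0.11) among those that fell. Their sum was 1494 ± 235 CPM in Brain Positive and 186 ± 8.22 in Brain Input, so it ran against Notch3. None of the 5 measured in Retina passed. The part of mural RNA in the Notch3 values was not tested.

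The ligand Dll4 (Entrez 54485, chromosome 2, 119325784 to 119335666), the Delta-like ligand of tip and arterial endothelium, had the largest rise of the 10 genes in Brain. It stood at 63.1, 64.2 and 63.3 CPM in Brain Positive, against 2.43, 2.01 and 2.69 CPM in Brain Input, or 26.7-fold (4.74 ± 0.11, adjusted p = 3.9e-10). Retina gave 29.1, 25.8 and 65.9 CPM in Retina Positive, against 1.38, 1.44 and 1.5 CPM in Retina Input (4.81 ± 0.41, adjusted p = 0.00014). Choroid gave 219.8, 223 and 303 CPM in Choroid Positive, against 26.6, 23.6 and 43.7 CPM in Choroid Input (2.96 ± 0.28, adjusted p = 1.16e-05). The groups were far apart in each tissue, and Retina Positive replicate 3 was again the high one.

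Jag1 (Entrez 16449, chromosome 2, 137081451 to 137116520), a Jagged ligand that endothelial, smooth muscle and glial cells can all make, behaved unlike Dll4. Brain had 33.7, 37.1 and 33.9 CPM in Brain Positive, against 4.39, 6.36 and 5.39 CPM in Brain Input, a rise of 2.69 ± 0.13 (adjusted p = 4.41e-08). Retina had 92.9, 89.2 and 97.6 CPM in Retina Positive, against 117, 129 and 122 CPM in Retina Input, a small fall with no overlap (-0.40 ± 0.076, adjusted p = 0.00654). Choroid had 73.9, 35 and 84.1 CPM in Choroid Positive, against 65.7, 68.2 and 62.5 CPM in Choroid Input. These overlapped (0.019 ± 0.30, adjusted p = 0.969), with Choroid Positive replicate 2 the low one at 21.5 estimated counts. Retina Input was the richest of the Input groups in Jag1. Astrocyte and Müller glia markers summed to 4111 ± 981 CPM in Retina Positive and 3891 ± 161 in Retina Input, where 1 of 10 rose and 3 fell. In Brain they summed to 4712 ± 179 CPM in Positive and 5383 ± 87.3 in Input, where 2 of 10 rose and 8 fell. Mural markers summed to 1494 ± 235 CPM in Brain Positive and 186 ± 8.22 in Brain Input, where 4 of 10 rose and 5 fell. The part of glial and mural cells in the Jag1 values was not tested.

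Jag2 (Entrez 16450, chromosome 12, 112908590 to 112929495), the other Jagged ligand, rose in all tissues with no overlap. It averaged 156 ± 9.72 CPM in Brain Positive and 32.6 ± 3.96 CPM in Brain Input (SD, n = 3 here and below), or 2.26 ± 0.10. It averaged 149 ± 54.8 CPM in Retina Positive and 37.4 ± 5.07 CPM in Retina Input, or 1.99 ± 0.24. Choroid averaged 341 ± 86.2 CPM in Choroid Positive and 46.1 ± 5.65 CPM in Choroid Input, or 2.89 ± 0.24. All passed, with adjusted p of 1.77e-08, 0.000759 and 5.88e-06 in Brain, Retina and Choroid.

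Rbpj (Entrez 19664, chromosome 5, 53555779 to 53657445), whose protein carries the signal to DNA, was the flattest member. It had 35.8, 40.3 and 36.4 CPM in Brain Positive, against 26.8, 30.6 and 30.8 CPM in Brain Input, a rise without overlap that was small (0.35 ± 0.087, adjusted p = 0.004). Retina averaged 41.3 ± 4.24 CPM in Retina Positive and 41.6 ± 4.08 CPM in Retina Input (-0.011 ± 0.12, adjusted p = 0.955). Choroid averaged 39.9 ± 22.2 CPM in Choroid Positive and 43.4 ± 6.12 CPM in Choroid Input (-0.075 ± 0.37, adjusted p = 0.896). Positive and Input overlapped in the eye tissues, and the 3 Choroid Positive libraries ranged from 19.1 to 63.2 CPM.

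Both target genes, which encode transcriptional repressors, rose in each tissue. Hes1 (Entrez 15205, chromosome 16, 30065357 to 30067796) had 44.3, 41.4 and 42.9 CPM in Brain Positive, against 12.3, 10.9 and 10.2 CPM in Brain Input (1.95 ± 0.093, adjusted p = 3.88e-08). Retina had 26.7, 25 and 45.4 CPM in Retina Positive, against 16.8, 10.9 and 14 CPM in Retina Input (1.23 ± 0.26, adjusted p = 0.0102). Choroid had 536, 568 and 488 CPM in Choroid Positive, against 129, 97.7 and 131 CPM in Choroid Input (2.15 ± 0.20, adjusted p = 1.16e-05). No groups overlapped, and Choroid stood far above both other tissues in either fraction.

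Hey1 (Entrez 15213, chromosome 3, 8663359 to 8667038) had its smallest rise in Brain. Brain had 89.99, 84.6 and 89.95 CPM in Brain Positive, against 52.5, 57.8 and 55.8 CPM in Brain Input, a modest rise (0.67 ± 0.065, adjusted p = 6.32e-06). Retina had 42.5, 42.5 and 66 CPM in Retina Positive, against 13.5, 14.9 and 16.8 CPM in Retina Input (1.75 ± 0.19, adjusted p = 0.000475). Choroid had 108, 116 and 134 CPM in Choroid Positive, against 32.3, 7.36 and 28.3 CPM in Choroid Input (2.35 ± 0.41, adjusted p = 0.000693). No groups overlapped, and the low Choroid Input value, replicate 2, rests on 14.5 estimated counts.

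Beyond the 10 members, a list of 62 other Notch pathway genes was followed. In Brain 28 of 60 measured rose and 20 fell (median 0.33), in Retina 14 of 53 rose and 4 fell (median 0.096), and in Choroid 11 of 40 rose and 6 fell (median 0.25). Over all genes tested, 38.3% rose and 39.7% fell in Brain, 15.3% and 10.8% in Retina, and 16.3% and 20.2% in Choroid, with medians near 0. The largest increases in Brain were Mfng, which encodes a Fringe glycosyltransferase that modifies Notch receptors (4.34 ± 0.12, 52.6 ± 3.1 CPM in Positive and 2.62 ± 0.401 in Input), and Egfl7, a secreted endothelial protein that can bind Notch (3.90 ± 0.088). The largest decreases there were Cntn1, a neural contactin that can act as a Notch ligand (-1.71 ± 0.076), and the divergent ligand Dll3 (-1.41 ± 0.22). In Retina Egfl7 (4.60 ± 0.26) and the Deltex-family gene Dtx3l (2.32 ± 0.23) rose most, and Bend6 (-0.92 ± 0.12) and Dner (-0.57 ± 0.077), a neuronal non-canonical ligand, fell most. In Choroid Dlk1, a non-canonical ligand (2.87 ± 0.28), and Egfl7 (2.86 ± 0.26) rose most, and Aph1c, a gamma-secretase subunit gene (-2.36 ± 0.33), and Dtx4 (-1.71 ± 0.57) fell most. By role, genes of the receptor-cleaving proteases rose in 8 of 9 measured in Brain, 4 of 9 in Retina and 2 of 9 in Choroid, and fell in 0, 0 and 1. The Choroid share is close to the 16.3% of all genes that rose there. Adam10, the sheddase of Notch receptors, rose in all 3 tissues (1.00 ± 0.065, 1.28 ± 0.19 and 0.92 ± 0.21), and was named after its values were seen. Of the other ligands 1 of 6 rose and 5 fell in Brain, 0 of 3 and 1 in Retina, and 1 of 2 and 0 in Choroid, and these lists are too short to set against the shares of all genes.

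Whether the pull-down changed a gene differently by tissue was tested as an interaction over all 18 libraries and the 7270 genes listed in each table. The differences below are of 1 tissue's log2 enrichment minus another's, and the 3 comparisons share libraries. For Retina minus Brain, Hey1 passed as higher and Notch2, Jag1 and Hes1 as lower, where 11% of genes were called higher and 18.8% lower. Choroid minus Brain gave 2 members higher (21.4% of genes) and 5 lower (30.5%). Choroid minus Retina gave 3 higher (21.7%) and 4 lower (23.3%). The median over the members was -0.18 beside -0.095 over all genes for Retina minus Brain, -0.69 beside -0.089 over all genes for Choroid minus Brain and 0.20 beside 0.073 over all genes for Choroid minus Retina. Scaling with DESeq2's size factors moved the median over all genes by 0.22 for Retina minus Brain and by 0.14 for Choroid minus Brain, and put 61.3% of the Retina minus Brain calls on the higher side, against 37% with TMM.

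Against Brain, the largest differences were those of Notch2 and Jag1. The enrichment of Notch2 was lower in Retina than in Brain by 2.48 (SE 0.28, adjusted p = 4.85e-06) and lower in Choroid than in Brain by 3.47 (SE 0.30, adjusted p = 5.18e-08). Jag1 enrichment differed by -3.14 ± 0.25 for Retina minus Brain (adjusted p = 7.01e-08) and -2.45 ± 0.26 for Choroid minus Brain (adjusted p = 5.89e-07). Notch3 had the largest difference between Choroid and Retina. Its Choroid enrichment was below the others, at -2.33 ± 0.69 for Choroid minus Brain (adjusted p = 0.00909) and -3.57 ± 0.70 for Choroid minus Retina (adjusted p = 0.000542). Of the 5 mural markers measured throughout, 4 were lower for Choroid minus Brain and 2 for Choroid minus Retina, with 0 higher, and their part was not tested. Dll4 was likewise less enriched in Choroid, at -1.63 ± 0.40 against Brain (adjusted p = 0.0026) and -1.64 ± 0.43 against Retina (adjusted p = 0.00452). Notch4 differed by -1.63 ± 0.45 for Choroid minus Retina (adjusted p = 0.00708). Over the same comparisons the 10 endothelial markers were lower in 10 of 10 for Choroid minus Brain and in 8 of 10 for Choroid minus Retina, with 1 higher, and Choroid Input held the most endothelial marker RNA of the Input groups. Its part in the Dll4 and Notch4 differences was not tested.

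Jag2 was called more enriched in Choroid than in either other tissue, and each target in 1 of the 2 comparisons with Choroid. The Jag2 call against Brain (0.81 ± 0.30, adjusted p = 0.0294) was lost on leaving out any of 7 single libraries, named below. Hey1 was enriched more in Choroid than in Brain by 1.80 ± 0.38 (adjusted p = 0.000674), and Hes1 more in Choroid than in Retina by 1.15 ± 0.27 (adjusted p = 0.00217). Hey1 against Retina (0.78 ± 0.38, adjusted p = 0.103) and Hes1 against Brain (0.37 ± 0.27, adjusted p = 0.258) did not pass. On a scale shared by the 18 libraries, Hey1 averaged 128 CPM in Choroid Positive and 99.7 in Brain Positive. It averaged 24.1 CPM in Choroid Input and 69.8 in Brain Input. Hey1 was listed in Choroid through Positive alone, and the part of Input in its difference was not tested. Jag2 was enriched more in Choroid than in Retina by 1.14 ± 0.30 (adjusted p = 0.00469). Notch1 and Rbpj passed in none of the 3 comparisons. The Notch1 differences, with their SE, were -0.032 ± 0.41 for Retina minus Brain, 0.16 ± 0.42 for Choroid minus Brain and 0.19 ± 0.42 for Choroid minus Retina.

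Of the 18 calls on enrichment differences, 6 moved with the libraries included. Hey1 in Retina minus Brain (1.02 ± 0.35, adjusted p = 0.0371) was lost on leaving out any of 9 single libraries (adjusted p 0.0522 to 0.0886): each Brain Positive, Brain Input 2 and 3, Retina Positive 3 and each Retina Input. Hes1 there (-0.78 ± 0.27, adjusted p = 0.0355) was lost without any of 9 libraries (0.0553 to 0.118): each Brain Positive, Brain Input 2 and 3, Retina Positive 1 and 2, and Retina Input 1 and 3. With DESeq2's size factors it was -0.56 (adjusted p = 0.119). Notch4 in Choroid minus Brain (-1.16 ± 0.43, adjusted p = 0.0328) was lost without Brain Positive 2 or 3, Brain Input 2, Choroid Positive 1 or 2 or Choroid Input 3 (0.0577 to 0.141), and with DESeq2's size factors (-1.02, adjusted p = 0.054). Jag2 in Choroid minus Brain (0.81 ± 0.30, adjusted p = 0.0294) was lost without Brain Positive 3, Brain Input 2 or 3, Choroid Positive 1 or 3 or Choroid Input 1 or 2 (0.051 to 0.0744). Jag1 in Choroid minus Retina (0.69 ± 0.26, adjusted p = 0.0351) was lost without Retina Positive 1 or 2, any Retina Input, Choroid Positive 1 or 3 or Choroid Input 3 (0.0505 to 0.125), and in a fit blocked on replicate number (0.66, adjusted p = 0.0548) or with DESeq2's size factors (0.61, adjusted p = 0.063). Notch2 in Choroid minus Retina (-0.99 ± 0.30, adjusted p = 0.0132) was lost without Choroid Positive 1 (0.0533).

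Levels on a scale shared by the 18 libraries show where each gene was most abundant. Notch4 averaged 625 ± 75 CPM in Choroid Positive and 77.8 ± 33.3 in Choroid Input, 121 ± 70.9 in Retina Positive and 4.99 ± 0.462 in Retina Input, and 192 ± 20.5 in Brain Positive and 11 ± 1.37 in Brain Input. Choroid Positive therefore ranked first, and the next places, Brain Positive, Retina Positive and Choroid Input, each overlapped their neighbour. Dll4 had the same order of 6 groups and the same overlaps, with 267 ± 51.2 CPM in Choroid Positive, 46.2 ± 24 in Retina Positive and 71.8 ± 0.798 in Brain Positive. Hes1 was highest in Choroid Positive (570.1 ± 41.7) and then in Choroid Input (126 ± 21.6), with no overlap between them, ahead of Retina Positive (37.4 ± 11.8) and Brain Positive (48.4 ± 1.71), which overlapped. Jag2 was highest in Choroid Positive (367 ± 93.6), and Retina Positive (171 ± 57.2) and Brain Positive (176 ± 9.36) overlapped below it. Hey1 was highest in Choroid Positive (128 ± 15.1), then Brain Positive (99.7 ± 4.1), without overlap. Retina Positive (58.2 ± 13.7) overlapped Brain Input (69.8 ± 3.2), and Choroid Input and Retina Input overlapped in last place.

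The remaining members were ordered differently. Notch1 led in Choroid Positive (272 ± 122), whose lowest library overlapped Retina Positive (99.6 ± 42.2), and Retina Positive, Choroid Input and Brain Positive each overlapped the next. Notch2 averaged 48.8 ± 12.7 CPM in Choroid Positive and 151 ± 26.7 in Choroid Input, the highest group. Brain Positive (89.4 ± 13.1) came second without overlap, and Retina Positive (25.7 ± 6.18) overlapped Brain Input (25 ± 2.43) in last place. Notch3 averaged 9.07 ± 3.96 in Choroid Positive and 86.8 ± 40.9 in Choroid Input, the highest group, and 9.24 ± 2.31 in Brain Positive and 20.6 ± 3.6 in Brain Input, which came second. The 3 Positive groups and Retina Input overlapped below them, each with the next. Jag1 averaged 108 ± 3.09 in Retina Positive and 165 ± 8.59 in Retina Input, the leading groups and without overlap, and was lowest in Brain Input (6.78 ± 1.24). Rbpj averaged 47.9 ± 3.65 in Retina Positive and 55.8 ± 5.95 in Retina Input, its highest group, and each group down to Brain Positive (42.4 ± 2.56) overlapped the next. Brain Input (37.1 ± 2.73) was lowest and separate.

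**Figure D2:**
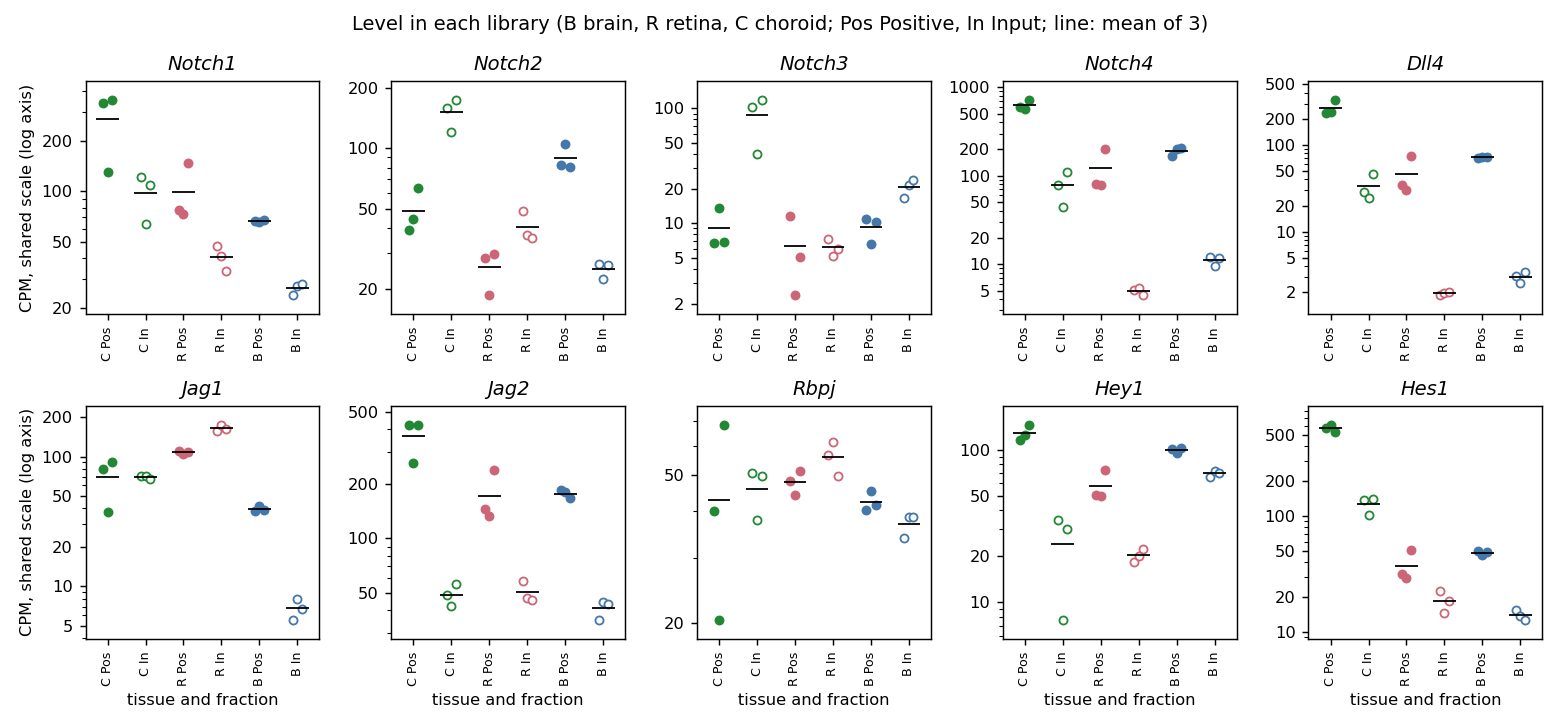
Level of the 10 Notch genes in each of the 18 libraries, in CPM on the shared scale (log axis), with Positive (filled) left of Input (open) for Choroid, Retina and Brain and a line at the mean of 3. Choroid Positive is highest for Notch1, Notch4, Dll4, Jag2, Hey1 and Hes1, while Notch2 and Notch3 peak in Choroid Input and Jag1 in Retina Input.

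Per length, the receptors and ligands can be weighed against each other. CPM per kb of exon was used, and each share is of the summed CPM per kb of the 4 receptors or of the 3 ligands. Notch4 made up 74% ± 6.36 of receptor signal in Choroid Positive and 24.4% ± 3.32 in Choroid Input, 55.5% ± 6.05 in Retina Positive and 7.94% ± 0.941 in Retina Input, and 63.5% ± 2.47 in Brain Positive and 17.8% ± 2.24 in Brain Input. It was thus the leading receptor in each Positive group and in none of the Input groups. Notch1 was second in Choroid Positive (21.5% ± 7.37) and Retina Positive (33.4% ± 1.97). In Brain Positive Notch2 (18.6% ± 2.26) and Notch1 (15.4% ± 1.25) overlapped. Of the ligands, Jag2 held 46% ± 5.08 in Choroid Positive, 51% ± 2.84 in Retina Positive and 56.8% ± 1.53 in Brain Positive. Dll4 held 46.3% ± 6.58, 18.2% ± 4.22 and 31.6% ± 1.17 of ligand signal in the same groups, so that Dll4 and Jag2 were level in Choroid Positive. Jag1 held 30.9% ± 7.05 in Retina Positive and 73.9% ± 3.25 in Retina Input.

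**Figure D3:**
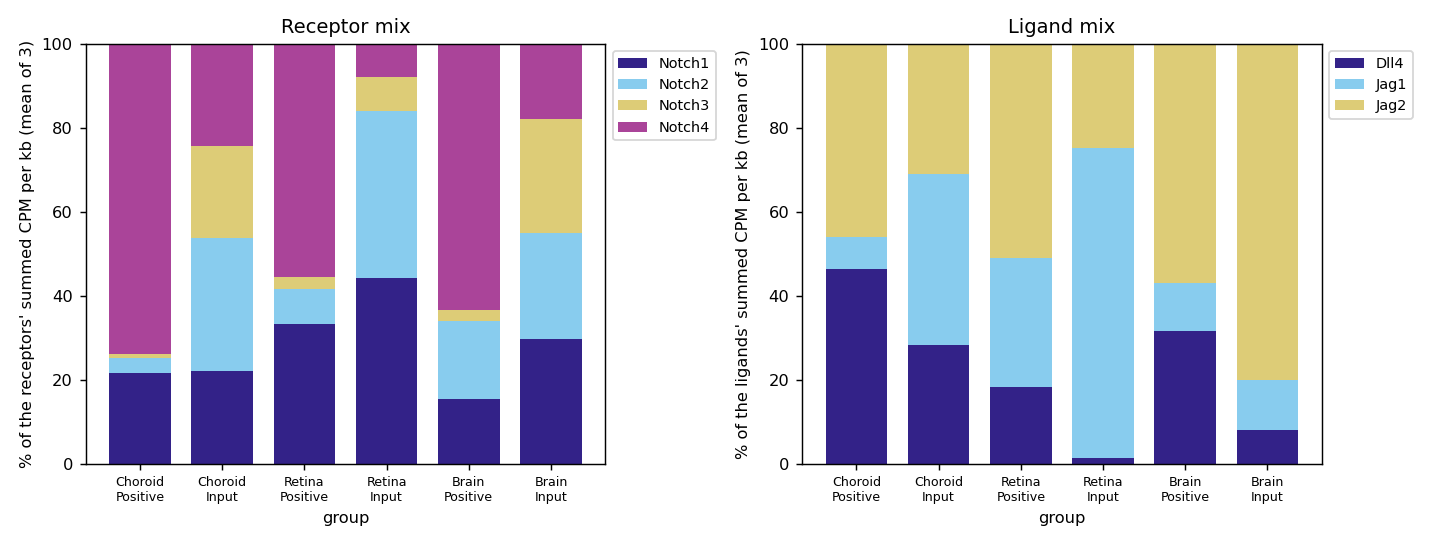
Mean share (percent, 3 libraries) of each receptor in the summed CPM per kb of 4 receptors (left) and of each ligand in that of 3 ligands (right), for Positive and Input of Choroid, Retina and Brain. Notch4 fills most of each Positive receptor bar, and Jag1 most of the Retina Input ligand bar.

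Positive fractions were then set against each other in a fit of 9 libraries. These comparisons also share libraries, and they cross tables that the authors filtered separately. For Retina over Brain, Jag1 was called higher (1.59 ± 0.21, adjusted p = 0.000106), where 29.5% of genes were called higher and 27.6% lower. Notch2 (-1.65 ± 0.23, adjusted p = 0.000137) and Hey1 (-0.64 ± 0.17, adjusted p = 0.0081) were called lower. Without Retina Positive replicate 3, 6 members passed, with Notch4 (-1.20, adjusted p = 9.25e-05), Dll4 (-1.07, adjusted p = 0.000409) and Hes1 (-0.59, adjusted p = 0.00234) lower as well. For Choroid over Brain, 7 members were called higher (28.9% of genes) and 1 lower (24%), and for Choroid over Retina 7 were higher (31.4%) and 0 lower (31%). By edgeR 1 member was lower against Retina at an unadjusted p under 0.05, which was Jag1 (-0.54 ± 0.22, adjusted p = 0.0532). It passed by DESeq2's Wald test (-0.52, adjusted p = 0.0234) and without Choroid Positive 2 (-0.32, adjusted p = 0.0297) or Choroid Positive 3 (-0.74, adjusted p = 0.0236). The median over the members was -0.30 beside 0.004 over all genes for Retina over Brain, 1.15 beside 0.08 over all genes for Choroid over Brain and 1.15 beside -0.026 over all genes for Choroid over Retina.

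Hes1 had the widest gap between Choroid and the other tissues. It was 13.2-fold higher in Choroid than in Brain (3.72 ± 0.21, adjusted p = 4.29e-07) and 15.4-fold higher in Choroid than in Retina (3.95 ± 0.21, adjusted p = 2.15e-07). Dll4 was higher in Choroid by 2.06 ± 0.30 against Brain and 2.55 ± 0.31 against Retina, and Notch4 by 1.87 ± 0.33 and 2.40 ± 0.33. The 10 endothelial markers were themselves higher in Choroid Positive, 9 of 10 against Brain and 10 of 10 against Retina. With libraries scaled to the summed counts of the 10 endothelial markers in place of TMM, these Dll4 and Notch4 differences shrank to 0.33 and 0.41 for Dll4 and 0.14 and 0.28 for Notch4, and none passed (adjusted p 0.247, 0.155, 0.597 and 0.288). That scaling moved the median of all genes to -1.65 for Choroid over Brain, -2.33 for Choroid over Retina and 0.58 for Retina over Brain. Hes1 remained higher on it, at 2.01 (adjusted p = 2.21e-06) and 1.77 (adjusted p = 3.85e-06).

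This scaling moves the median of all genes, though not each gene by the same amount. Values on the endothelial scale are therefore given beside its median. Under the endothelial scaling 155 genes were called higher and 6285 lower for Choroid over Brain, and 188 and 6365 for Choroid over Retina. For Retina over Brain 2998 were called higher and 606 lower. Against Brain, Notch1 was higher in Choroid by 2.23 ± 0.35 with TMM and did not pass on the endothelial scale (0.44, adjusted p = 0.15). Jag1 (1.05 ± 0.22), Jag2 (1.24 ± 0.24) and Hey1 (0.53 ± 0.18) were higher in Choroid than in Brain with TMM. On the endothelial scale Jag1 (-0.75, adjusted p = 0.0323) and Hey1 (-1.20, adjusted p = 0.000514) passed as lower. Jag2 (-0.52, adjusted p = 0.0512) did not pass. Each stood above the scale's median of -1.65 over all genes. Hey1 with TMM was also lost without any 1 Brain Positive library or Choroid Positive 3 (adjusted p 0.0938 to 0.127). Against Retina, Notch1 (1.51 ± 0.35), Notch2 (0.95 ± 0.25), Jag2 (1.14 ± 0.24) and Hey1 (1.17 ± 0.18) were higher in Choroid with TMM. On the endothelial scale each passed as lower, at -0.72, -1.32, -1.09 and -1.06 (adjusted p = 0.024, 0.00119, 0.000329 and 0.00122). Each stood above the scale's median of -2.33. Notch2 was lower in Choroid than in Brain on both scales, at -0.71 ± 0.24 with TMM (adjusted p = 0.0318, and 0.058 to 0.144 without Brain Positive 2 or Choroid Positive 1 or 2) and -2.44 on the endothelial scale. Jag1 was higher in Retina than in Brain on both, and on the endothelial scale by 2.17, beside its median of 0.58. Within Retina, Jag1 was lower in Positive than in Input (-0.40 ± 0.076). Photoreceptor markers summed to 40275 CPM in Retina Positive and 39928 in Retina Input. The part of RNA from other cells in the Jag1 level of Retina Positive was not tested. On the endothelial scale the Hey1 difference for Retina over Brain was -0.14 and did not pass (adjusted p = 0.689). Notch1 (1.17, adjusted p = 0.00282) and Rbpj (0.87, adjusted p = 0.0412) passed there. With TMM these 2 did not pass, at 0.72 (adjusted p = 0.0872) and 0.31 (adjusted p = 0.308).

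Counted per 100 counts of the endothelial markers in the same library, Notch4 stood at 3.97 ± 0.376 in Choroid Positive, 3.26 ± 0.644 in Retina Positive and 3.6 ± 0.516 in Brain Positive, and these groups overlapped. Dll4 stood at 1.7 ± 0.281, 1.27 ± 0.19 and 1.34 ± 0.067 in the same order, also with overlaps. Hes1 stood at 3.67 ± 0.718 in Choroid Positive, above every library of Retina Positive (1.07 ± 0.0898) and Brain Positive (0.907 ± 0.0413). Notch2 had 3 groups without overlap, with 0.311 ± 0.0745 in Choroid Positive, 0.767 ± 0.25 in Retina Positive and 1.67 ± 0.251 in Brain Positive.

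**Figure D4:**
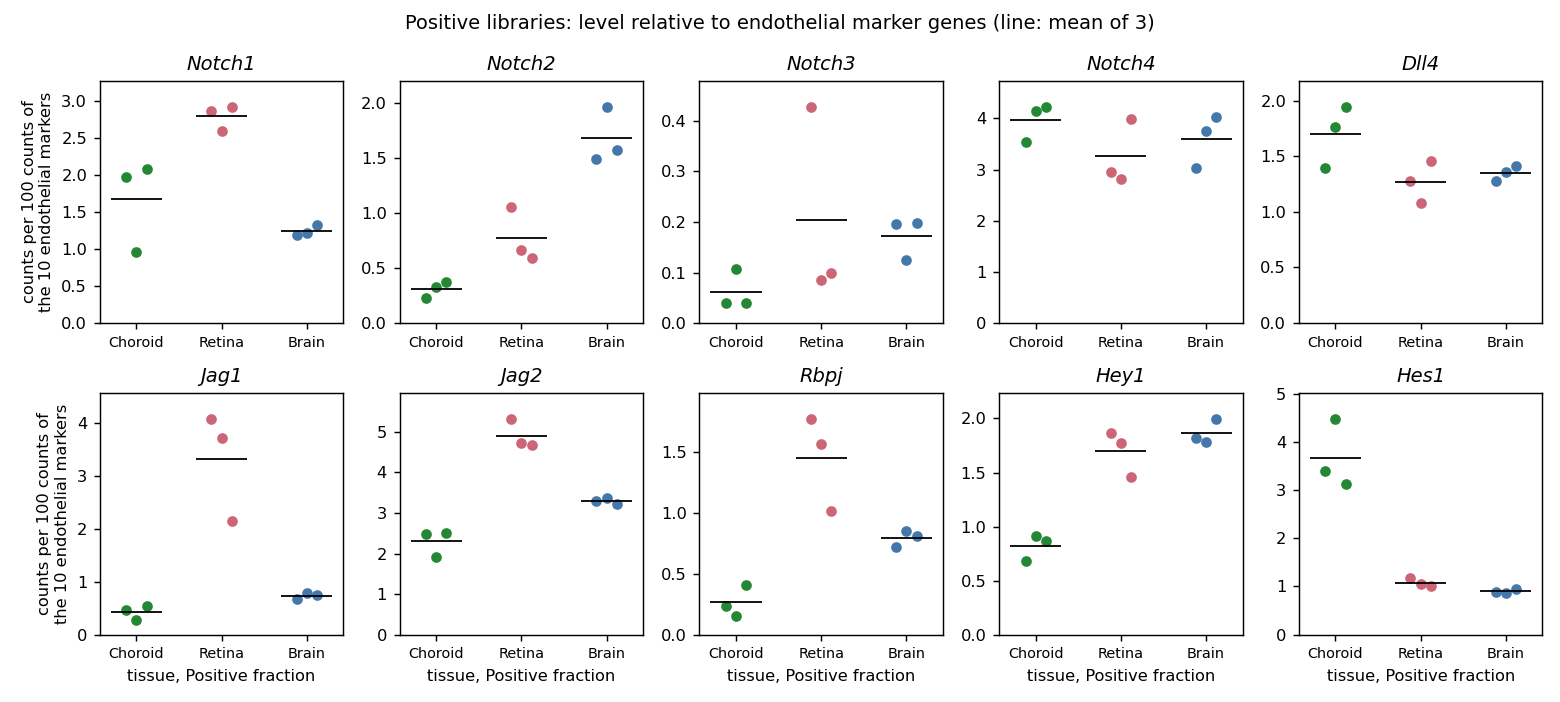
Counts of each Notch gene per 100 counts of 10 endothelial markers (vertical axis) in the 9 Positive libraries, by tissue, with a line at the mean of 3. Notch4 overlaps between tissues, Hes1 is higher in each Choroid library than in any Retina or Brain library, and Notch2 is lower in each.

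Genes whose levels ran most like a member's over the 18 libraries, among the 7270 shared genes, were picked by a fixed measure. The measure is Pearson's r of log2 CPM, over libraries that share tissue, fraction and depth, and carries no test. Notch4 and Dll4 were most alike (r = 0.995), and each was next closest to Sox18, a transcription factor gene of endothelium (0.992 and 0.994), followed by Ctla2a for Notch4 (0.991) and the ephrin receptor gene Ephb4 for Dll4 (0.993). Hes1 was closest to Ripply3 (0.991), Bambi (0.984) and Epha2 (0.983). Hey1 was closest to Unc5b, a netrin receptor gene of vessels (0.982), then Lysmd2 (0.954) and Plk2 (0.944). Jag1 was closest to Cpt1a (0.976), Plekhf2 (0.97) and Pofut1 (0.969), which encodes an enzyme that fucosylates Notch. Jag2 was closest to Ankrd13a (0.963), Sipa1 (0.959) and Ptprg (0.957). Among the genes closest to Notch1 were Adam17 (0.953), a sheddase gene, and Arhgap31 (0.952). Notch2 was closest to Loxl1 (0.958), Serp1 (0.952) and Ptpn13 (0.951), and Notch3 to Ociad2 (0.929), Abi3bp and Slc12a2 (0.927 each). Rbpj had the loosest partners, Tgfbrap1 and Exoc4 (0.906 each) and Stx5a (0.896).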

How the data were processed

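Sequencing measured RNA in 18 libraries, 3 for each fraction of each tissue. Per the file headers, the authors' raw values are estimated counts per gene, which need not be whole. Beside them the authors deposited normalized values on a log2 scale. By the headers' account, a table lists the genes that reached a raw value of 50 in every sample of 1 fraction or the other. The processing notes of the submitters give mm10 and DESeq, with no version. Neither labels nor headers state an aligner, a counting program or the use of strand. In GENCODE M21, genes on the opposite strand overlap Notch1, Dll4, Rbpj, Notch3 and Notch4, and reads of each pair cannot be told apart if counting ignored strand. Totals, which cover listed genes only, ran from 713733 to 43219831 counts.

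The counts were rounded to whole numbers and fitted with edgeR 4.0.16 in R 4.3.3, by TMM scaling and the quasi-likelihood F test. A filterByExpr step (minimum count 10) took out 0 genes. Each tissue was fitted apart over its listed genes, differences of enrichment in 1 fit of 18 libraries, and Positive fractions in 1 fit of 9, the last 2 over 7270 shared genes. Benjamini-Hochberg adjustment ran over all genes of a fit, with a threshold of 0.05. Nothing says how many animals stand behind the libraries, so the p-values measure only how these samples vary, which can include technical variation. Tests were checked on simulated data. Exon lengths came from GENCODE M21, gene positions from the annotation that the authors deposited beside their counts, and promoters from RefSeq GRCm38.p6. Log2 CPM for likeness used a prior count of 1. The authors' log2 values were used only to recover their scaling factors, within 0.001 for 99.957%, 99.977% and 99.867% of Brain, Retina and Choroid values.

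The members and lists were chosen with earlier results of these data known. Named were all members, the 3 genes most like each, and the 2 largest increases and decreases of the pathway list per tissue, leaving out predicted and clone symbols. A gene that this rule names is not reported here. Per the labels, Input is a portion of the supernatant kept before the pull-down, and same-numbered fractions of a tissue were taken as pairs from 1 homogenate. As a check, deviations from the group mean were correlated within each of the 9 pairs. There r passed 0.1 in 7, between a minimum of 0.0044 and a maximum of 0.276. It did not in Retina pairs 1 (0.0988) and 3 (0.0044), while Retina Positive 3 with Retina Input 1, of unlike number, gave 0.18. The check therefore cannot settle the pairing in Retina. Alternatives were DESeq2 1.42.0 size factors and Wald test, no filter, a filter at the median level, a fit blocked on replicate number, a stricter adjusted p of 0.01, a log2 fold change of at least 1, scaling to 10 endothelial markers, and each library left out. The main fits did not use the pairing and treated Positive and Input libraries as independent. In the blocked fit the block was the replicate number within a tissue, except for Positive fractions, where it was the number across tissues. The authors' factors, and both Choroid replicate 2 libraries left out, were added after seeing the data.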

Additional observations from a re-analysis of the deposited data

Results flagged for a closer look

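Each of the 18 results below was set apart because the log2 enrichment of Positive over Input differed between tissues, by edgeR's quasi-likelihood test of the interaction over 18 libraries, with p adjusted over 7270 genes. The 3 tissue comparisons share libraries. In Retina minus Brain, Notch2 differed by -2.48 (adjusted p = 4.85e-06), Jag1 by -3.14 (adjusted p = 7.01e-08), Hey1 by 1.02 (adjusted p = 0.0371) and Hes1 by -0.78 (adjusted p = 0.0355). In Choroid minus Brain, Notch2 differed by -3.47 (adjusted p = 5.18e-08), Notch3 by -2.33 (adjusted p = 0.00909), Notch4 by -1.16 (adjusted p = 0.0328) and Dll4 by -1.63 (adjusted p = 0.0026). There Jag1 differed by -2.45 (adjusted p = 5.89e-07), Jag2 by 0.81 (adjusted p = 0.0294) and Hey1 by 1.80 (adjusted p = 0.000674). In Choroid minus Retina, Notch2 differed by -0.99 (adjusted p = 0.0132), Notch3 by -3.57 (adjusted p = 0.000542), Notch4 by -1.63 (adjusted p = 0.00708) and Dll4 by -1.64 (adjusted p = 0.00452). There Jag1 differed by 0.69 (adjusted p = 0.0351), Jag2 by 1.14 (adjusted p = 0.00469) and Hes1 by 1.15 (adjusted p = 0.00217).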

How the results depend on the processing

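The 25 member calls on Positive over Input kept their direction and call in 298 of 298 alternatives of scaling, filter, test, block and library. Every alternative started from the same listed genes. The tally therefore cannot bear on calls listed through 1 fraction alone: Dll4 in Retina and Choroid, and Hey1, Notch2 and Notch3 in Choroid. The tallies of kept calls include the fit with no filter, which equals the main fit because filterByExpr took out 0 genes. Members that the median filter removed were not tested under it and are not in these tallies. Of the alternatives to the 18 calls on enrichment differences, 354 of 402 kept the call and 48 lost it, and of those to the 18 calls on Positive fractions, 245 of 265 kept it, 13 lost it and 7 turned its direction. Those 7 came from scaling to the endothelial markers, which moves the median of all genes to -1.65 and -2.33. All 7 values stayed above that median, and all but Jag2 for Choroid over Brain passed as lower. Apart from these tallies, the stricter thresholds ended calls. An adjusted p under 0.01 ended 1 call on Positive over Input (Hes1 in Retina), 6 on enrichment differences and 2 on Positive fractions. A log2 fold change of at least 1 ended 3 (Rbpj and Hey1 in Brain, Jag1 in Retina), 4 and 4. Depth limits the Choroid values most, with 713733 counts in the smallest library, and Notch3 in Choroid Positive rests on 8.5 to 16.8 counts.

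Keeping only genes at or above the median level left fewer genes to test. Members below that level were not tested, so a lower member count is not a count of calls lost. Of called members that were tested, 2 lost the call. These were Hes1 for Retina minus Brain (-0.55, adjusted p = 0.115) and Jag2 for Choroid minus Brain (0.68, adjusted p = 0.0579). The filter gave 5729, 1952 and 1802 calls over all genes in Brain, Retina and Choroid for Positive over Input. Members called there were 5 in Brain and 4 in Retina. It gave 0 members for Retina minus Brain, 1 member and 2011 genes for Choroid minus Brain, and 3 members and 1634 genes for Choroid minus Retina. Among Positive fractions it gave 1 member and 2232 genes for Retina over Brain, 2236 genes for Choroid over Brain and 2615 for Choroid over Retina. At an adjusted p under 0.01, 1733 genes passed in Retina, and 2 members and 1262 genes for Retina minus Brain. Asking for a log2 fold change of at least 1 left 4607 genes in Brain, 1170 in Retina, 1022 for Retina minus Brain, 2297 for Choroid minus Brain and 1854 for Choroid minus Retina. Among Positive fractions it left 1822 genes for Retina over Brain, 1923 for Choroid over Brain and 2657 for Choroid over Retina.

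Apart from those under the endothelial scaling, reversals were of uncalled values, and the cause was not tested. Rbpj in Retina was 0.011 with DESeq2's size factors, 0.0090 with the median filter and 0.012 with the Wald test, and Rbpj in Choroid was 0.082 with both Choroid replicate 2 libraries left out. Jag1 in Choroid was -0.048 with the authors' factors. Notch1 for Retina minus Brain was 0.19 with DESeq2's size factors, 0.20 with the median filter and 0.18 with the Wald test, and for Choroid minus Retina it was -0.17 with the median filter. Notch3 in Positive fractions, Choroid over Brain, was 0.00041 by the Wald test. Scaled to the endothelial markers, Retina over Brain gave 0.24 for Notch3 and 0.24 for Hes1. Choroid over Brain gave 6440 genes, 155 higher and 6285 lower, with Jag1 at -0.75, Jag2 at -0.52, Rbpj at -1.54 and Hey1 at -1.20. Choroid over Retina gave Notch1 at -0.72, Notch2 at -1.32, Notch3 at -1.98, Jag2 at -1.09 and Hey1 at -1.06.

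With the replicate number as a block, Jag1 in Choroid was -0.039, Dll4 for Retina minus Brain was -0.13, and Jag1 for Choroid minus Retina was lost (0.66). Between tissues no label says that a number pairs samples, and there the block gave 5 member calls for Retina over Brain, adding Notch4 (-0.65, adjusted p = 0.0499) and Dll4 (-0.60, adjusted p = 0.0483). The block changed no other member call.

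Leaving out 1 library at a time gave ranges that cross 0 for uncalled values. For Positive over Input these were Notch3 in Retina (-0.41 to 0.63), Rbpj in Retina (-0.087 to 0.058), Jag1 in Choroid (-0.20 to 0.27) and Rbpj in Choroid (-0.55 to 0.19). For Retina minus Brain they were Notch1 (-0.44 to 0.15), Notch4 (-0.14 to 0.69) and Dll4 (-0.50 to 0.24). Notch1 ran from -0.042 to 0.45 for Choroid minus Brain and from -0.010 to 0.60 for Choroid minus Retina, where Rbpj ran from -0.24 to 0.41. Among Positive fractions, Jag2 for Retina over Brain ran from -0.28 to 0.20. Choroid over Brain gave -0.28 to 0.14 for Notch3 and -0.17 to 0.49 for Rbpj, and Choroid over Retina gave -0.024 to 1.09 for Notch3 and -0.48 to 0.18 for Rbpj. Member calls ran from 2 to 4 for Retina minus Brain and from 3 to 6 for Retina over Brain, where 6 came without Retina Positive replicate 3. Calls over all genes in Retina ran from 1836 to 3637, with 1836 without Retina Input replicate 2 and 2048 without Retina Input replicate 1.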
